A study of Mus musculus with 4 samples.

Results

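The genes studied were the C-type lectin receptors whose symbol begins with Clec and a digit, with Clec10a left out, and they were compared between 2 immune cell populations of the mouse skin wound. They were taken from the deposited transcript table by gene symbol alone, which gave 31 genes of the 24358 in the table, with 52 transcripts. FPKM (a fragment count divided by transcript length and by the mapped total) was summed over the transcripts of each gene. CD301b mphage are macrophages sorted for CD301b, itself a lectin, and F4/80neg are immune cells sorted as negative for the macrophage surface protein F4/80. Both were isolated by flow sorting from the dermis of day 5 wound beds of 7-week-old male C57/Bl6 mice, with no transgene or treatment named beyond the wound, and each population had 2 libraries. The table gives 1 FPKM per transcript and population, the authors' value, so neither the spread between libraries nor the depth of a library can be given, and no error stands beside any FPKM here. The labels do not say whether the 2 libraries of a population came from separate mice, so the p-values may measure technical spread. No library of macrophages without CD301b was analysed here. The populations are called by their labels throughout, and the transcript levels of the sorted proteins matched the labels in part. Adgre1, the gene of F4/80, was higher in CD301b macrophages, at 557 FPKM against 151 FPKM in the F4/80-negative population. Mgl2, the gene of CD301b, was lower in the macrophages labelled for it, at 49.2 FPKM against 103 FPKM.

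C-type lectin receptors are membrane proteins that bind sugars, lipids or proteins of microbes and of damaged or neighbouring cells through a lectin-like domain. In myeloid cells many of them work through tyrosine motifs: activating receptors carry or pair with an immunoreceptor tyrosine-based activation motif (ITAM) and call on the kinase Syk and the adaptor Card9, whereas inhibitory receptors carry an inhibitory motif (ITIM) that recruits phosphatases. In the mouse most of them lie in a pair of gene clusters on chromosome 6, named here for their best known members, Dectin-2 (Clec4n) and Dectin-1 (Clec7a).

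Members of the family went in both directions. Clec4a1, Clec4a3 and Clec4a2, of the dendritic cell immunoreceptor (DCIR) group, were higher in CD301b macrophages. Clec7a, Clec4e, Clec2i and the secreted tetranectin gene Clec3b were lower. The other 14 of 21 tested genes were not past the threshold, and 10 were not tested by the authors. A call needed at least 1 transcript past an adjusted p of 0.05, no transcript past it in the opposite direction, and a summed FPKM on the same side. The adjusted p was computed by the Benjamini-Hochberg method from the p that Cuffdiff gave each of 16921 transcripts in the authors' deposited table. It belongs to a transcript and is no test of the sum. Of all 13039 tested genes, 11.0% were called higher in CD301b macrophages and 6.2% lower, beside 14.3% and 19.0% of the 21 tested Clec genes. Both directions together made up 17.2% of all tested genes. By transcript, 3 of 34 tested Clec transcripts were higher and 5 were lower, beside 9.1% and 5.14% of all tested transcripts. The shares rest on 3 and 4 genes and the lists were not tested against each other. Log2 differences are on the log2(FPKM + 1) scale, as CD301b macrophages over F4/80-negative cells. Their median was -0.14 over the 21 tested Clec genes, beside 0.055 over all tested genes. Over all 31 Clec genes, untested ones included, it was -0.03. Over Clec genes at 1 FPKM or more it was 0.060, beside 0.075 over all tested genes at that level. Scaling both populations to their median gene would lower these differences by up to 0.11. In these bulk samples, fewer cells of a type and less RNA per cell cannot be told apart.

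The same 6 genes were the most abundant in both populations, in a different order. Where a pair of values is given for a gene, the first is that of F4/80-negative cells unless stated. Clec7a, Clec4d, Clec4n, Clec4a3, Clec4a1 and Clec4e together held 80.3% of the summed FPKM of the family in F4/80-negative cells and 84.1% in CD301b macrophages. In F4/80-negative cells Clec7a was the most abundant member at 219.8 FPKM and Clec4a1 the fifth at 142 FPKM. In CD301b macrophages Clec4a1 led at 324 FPKM and Clec7a was the fifth at 110.3 FPKM. As a share of the family's summed FPKM, Clec4a1 held 10.9% in F4/80-negative cells and 22.3% in CD301b macrophages, and Clec7a held 16.9% and 7.6%. Of the 31 genes, 18 reached 1 FPKM in at least 1 population and 13 did not.

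**Figure D1:**
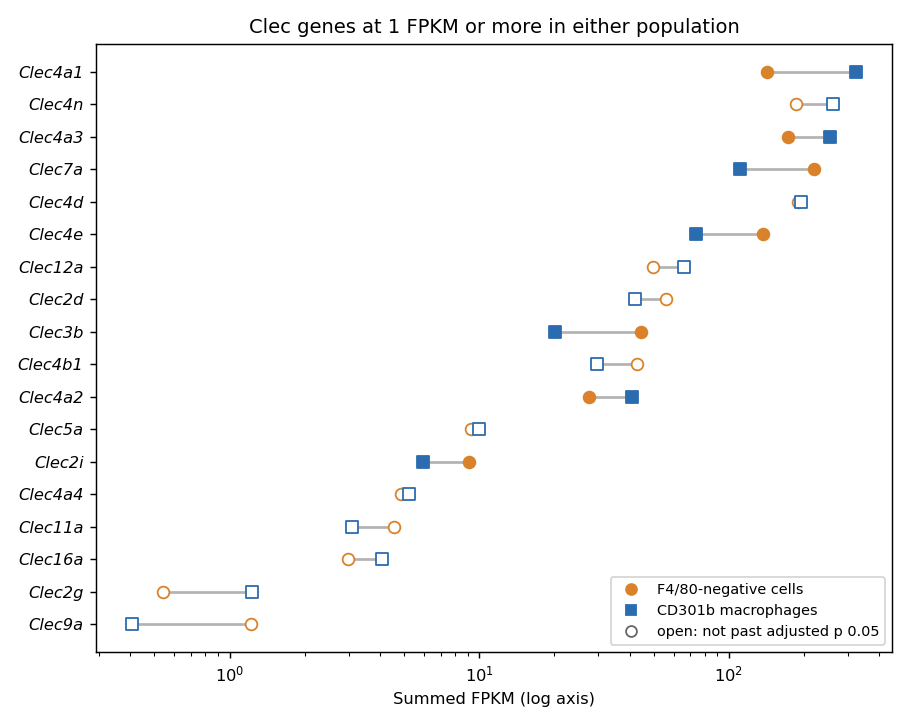
Summed FPKM (log axis) of the 18 Clec genes at 1 FPKM or more in either population, with a circle for F4/80-negative cells and a square for CD301b macrophages, each the authors' single value per population. Filled symbols mark the 7 called genes, and the Clec4a1 and Clec7a symbols stand in opposite order, 142 and 324 FPKM against 219.8 and 110.3 FPKM.

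The Dectin-2 cluster lies on chromosome 6 from 122921848 to 123289871 (RefSeq gene positions, GRCm38) and holds 9 members and no other gene of the table. Of its 8 tested members, 3 were higher in CD301b macrophages and 1 was lower, while 4 did not pass. Over all tested genes 11.0% were higher and 6.2% lower, and counts this small were not tested against these shares. In chromosome order the members are Clec4a1, Clec4a3, Clec4a4, Clec4b1, Clec4a2, Clec4b2, Clec4n, Clec4d and Clec4e. The gene with the largest difference upwards, Clec4a1, and the only lower gene, Clec4e, are the first and the last of this order. Their lower coordinates are 359.9 kb apart. Between them the log2 differences did not fall steadily, with -0.52 at Clec4b1 and 0.55 at the next gene, Clec4a2.

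Clec4a1 and Clec4a3 are DCIR genes without an ITIM. The DCIR group was led by Clec4a1 (also named Dcir4, NCBI gene 269799, chromosome 6, 122921848 to 122934619). Clec4a1 was 142 FPKM in F4/80-negative cells against 324 FPKM in the macrophages. This 2.28-fold difference had an adjusted p of 0.000999, the smallest that Cuffdiff's p in the authors' deposited table allows. Clec4a3 (Dcir3, 122952515 to 122969878) lies next to it and was 172 and 255 FPKM, in the same order of populations, which is 1.48-fold. The Clec4a3 call rested on 1 of its 2 transcripts, at 148 and 226 FPKM (adjusted p = 0.0243, by Cuffdiff in the authors' deposited table). The other Clec4a3 transcript starts further into the gene, was 24.0 and 28.4 FPKM and was not past the threshold. Both have the same coding length, 711 bases in GENCODE M21.

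Clec4a2 (Dcir1) and Clec4a4 (Dcir2) carry an ITIM, and Clec4a2 is the mouse gene usually called DCIR, a brake on dendritic cells. Clec4a2 was 27.6 FPKM in F4/80-negative cells against 40.9 FPKM in the macrophages, which is 1.48-fold. Here 1 of 3 transcripts passed, at 16.3 and 27.2 FPKM (adjusted p = 0.0457, by Cuffdiff in the authors' deposited table). Clec4a4, a surface marker of a dendritic cell subset, was 4.88 and 5.22 FPKM and was not past the threshold. Clec4a2 and Clec4a4 are close copies, with coding sequences 85.0% identical. Of the 50-base words of the passing Clec4a2 transcript, 19.9% also occur in another gene (13.1% in Clec4a4), so reads of these parts cannot be assigned with certainty. Clec4a1 and Clec4a3 share no such word with another gene. The coding sequences of Clec4a1 and Clec4a3 are 69.0% identical.

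The bases before the start of transcription are shown for the first and the last gene of the cluster, which differed in opposite directions, and for Clec4a3, the higher neighbour of Clec4a1. Each run is the 250 bases before the most upstream RefSeq start (GRCm38.p6), 5′ to 3′ on the strand of the gene, and capitals mark matches to the motifs searched.
Clec4a1 (chr6:122921598-122921847, plus strand): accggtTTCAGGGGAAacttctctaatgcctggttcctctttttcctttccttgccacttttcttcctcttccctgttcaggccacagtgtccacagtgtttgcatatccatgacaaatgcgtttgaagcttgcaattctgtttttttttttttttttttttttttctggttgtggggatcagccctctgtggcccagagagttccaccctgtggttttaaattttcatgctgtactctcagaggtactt
Clec4a3 (chr6:122952265-122952514, plus strand): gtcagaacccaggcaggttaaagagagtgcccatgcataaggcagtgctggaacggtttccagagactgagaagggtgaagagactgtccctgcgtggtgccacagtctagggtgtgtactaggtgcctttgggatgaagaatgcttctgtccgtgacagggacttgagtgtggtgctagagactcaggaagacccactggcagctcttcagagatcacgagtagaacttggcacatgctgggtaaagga
Clec4e (chr6:123289872-123290121, minus strand): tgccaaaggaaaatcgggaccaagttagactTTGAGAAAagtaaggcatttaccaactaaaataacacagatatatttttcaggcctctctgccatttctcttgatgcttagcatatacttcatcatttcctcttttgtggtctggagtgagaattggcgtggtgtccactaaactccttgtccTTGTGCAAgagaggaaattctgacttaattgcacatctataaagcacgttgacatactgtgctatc
The motifs were those of PU.1 (GAGGAAGT), AP-1 (TGANTCA), C/EBP (TTNNGNAA), IRF (a pair of GAAA with 2 bases between them), STAT6 (TTC and GAA with 4 bases between them), a Maf half-site (TGCTGAC) and NF-kB (10-letter consensus), on both strands, and matches of different motifs may overlap. The Clec4a1 window holds 1 STAT6 match, 244 bases before the start, and the Clec4e window holds 2 C/EBP matches, 66 and 219 bases before the start. No match of the 7 motifs lies in the Clec4a3 window. Of 27025 promoters of the same length, 5.88% hold the STAT6 motif and 37.0% the C/EBP motif. A match describes letters only. Clec4a1 and Clec4a3 windows are 44.5% identical when aligned end to end, close to the 43.5% between Clec4a1 and Clec4e. Over all pairs of cluster members with a window, this identity ran from 40.5% to 48.7%, so 44.5% marks no particular likeness.

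Clec4n, Clec4d and Clec4e sit together at the far end of the cluster and encode receptors that signal through the Fc receptor gamma chain. Clec4n encodes Dectin-2, which binds fungal mannans. It was 186 FPKM in F4/80-negative cells against 262 FPKM in the macrophages, and its smallest adjusted p was 0.0554, by Cuffdiff in the authors' deposited table. Adjusting over transcripts at 1 FPKM or more put Clec4n past the threshold, which made 4 higher members. Clec4d, also called MCL, was nearly equal at 189 and 195 FPKM and was not past the threshold. Clec4e encodes Mincle, a sensor of mycobacterial glycolipid and of products of dead cells that pairs with the Clec4d protein. Clec4e (NCBI gene 56619, 123281789 to 123289871) was 136.8 FPKM in F4/80-negative cells against 74.1 FPKM in the macrophages. That is 1.85-fold lower in the macrophages (adjusted p = 0.000999, by Cuffdiff in the authors' deposited table). Per unit of transcript length, Clec4d exceeded Clec4e in both populations. Of these 3 neighbours, 1 was lower in macrophages and the others were not past the threshold.

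Clec4b1 encodes DCAR, an activating counterpart of DCIR. It was 42.8 FPKM in F4/80-negative cells against 29.5 FPKM in the macrophages, with a smallest adjusted p of 0.10 by Cuffdiff in the authors' deposited table. Clec4b1 shares 9.73% of the 50-base words of its main transcript with Clec4a2. Its near copy Clec4b2 was 0.0655 and 0.0455 FPKM and was not tested. Clec4b1 and Clec4b2 are 80.7% identical in coding sequence.

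**Figure D2:**
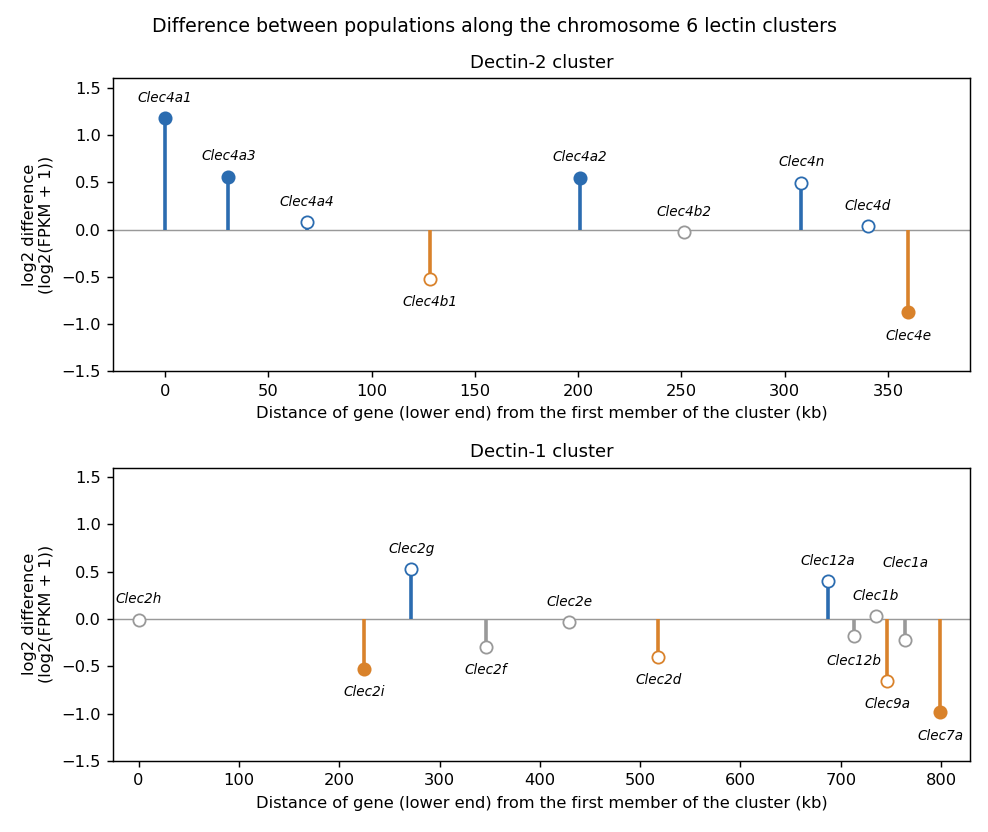
Log2 difference of summed FPKM, CD301b macrophages over F4/80-negative cells on the log2(FPKM + 1) scale, against the distance of each gene's lower coordinate from the first member of its cluster in kb. Filled points passed an adjusted p of 0.05, open points did not, and grey points were under 1 FPKM in both populations. In the Dectin-2 cluster the end genes stand at 1.18 (Clec4a1) and -0.88 (Clec4e), with genes of both signs between them in no steady order. Clec7a, the last gene of the Dectin-1 cluster, stands at -0.99.

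The Dectin-1 cluster lies on chromosome 6 from 128662385 to 129472785 and holds 12 members. Joining neighbours within 1 Mb put 2 groups under this name: Clec2h, Clec2i, Clec2g, Clec2f, Clec2e and Clec2d, and the receptor genes from Clec12a to Clec7a. Of 7 tested members, 2 were lower in CD301b macrophages, none was higher and 5 were not past the threshold. Over all tested genes 6.2% were lower and 11.0% higher. Counts this small do not set the cluster apart from these shares and were not tested against them. At an unadjusted p of 0.05 for the most abundant transcript, 1 member of this cluster, Clec12a, had the higher value in macrophages. The share of all genes at that setting was not computed. The summed FPKM of the 12 genes was 338 in F4/80-negative cells and 227 in CD301b macrophages. Clec7a, the largest member, at 219.8 and 110.3 FPKM, matches nearly all of this net difference. The others partly cancelled: Clec2d was 56.0 and 42.2 FPKM and Clec12a 49.6 and 65.9 FPKM, neither past the threshold. In the Dectin-2 cluster the sums were 901 and 1185 FPKM. The difference between the clusters was not tested.

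Clec7a encodes Dectin-1, the receptor for fungal beta-glucan, which signals to Syk through a single-tyrosine ITAM-like motif of its own. Clec7a (NCBI gene 56644, 129461591 to 129472785) was 219.8 FPKM in F4/80-negative cells against 110.3 FPKM in the macrophages, 1.99-fold lower in the latter. Both of its transcripts passed the threshold. The form with the higher FPKM was 196.0 and 98.6 FPKM (adjusted p = 0.000999) and the other was 23.8 and 11.7 FPKM (adjusted p = 0.00182), both by Cuffdiff in the authors' deposited table. The transcripts differ by an exon that codes for part of the stalk between membrane and lectin domain. The longer form has a coding length of 732 bases and the stalkless form 597. The transcript with the lower FPKM is the one that includes this exon, exon 3 of 6, which is shown because the forms differ in protein by it. It is 135 bases long, a whole number of codons, and lies at chr6:129468869-129469003 on the minus strand.
Clec7a stalk exon: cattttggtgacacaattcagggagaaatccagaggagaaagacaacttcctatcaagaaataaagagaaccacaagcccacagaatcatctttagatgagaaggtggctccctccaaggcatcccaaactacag
The stalkless form held 89.2% of Clec7a FPKM in F4/80-negative cells and 89.4% in CD301b macrophages. The GENCODE models of these transcripts differ in length beyond this exon (707 and 2272 bases), and FPKM depends on the model's length.
Clec7a promoter (chr6:129472786-129473035, minus strand): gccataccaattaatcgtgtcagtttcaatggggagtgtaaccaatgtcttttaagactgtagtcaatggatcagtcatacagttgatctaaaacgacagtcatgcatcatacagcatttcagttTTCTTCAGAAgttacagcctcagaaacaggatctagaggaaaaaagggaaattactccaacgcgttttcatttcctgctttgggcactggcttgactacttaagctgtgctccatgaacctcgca
This window holds 1 STAT6 match, 125 bases before the start, shown in capitals. Of the 25 members with a promoter in the RefSeq table, 4 hold this motif, beside 5.88% of all 27025 promoters, and these shares were not compared by a test. Among the 4, Clec7a and Clec4a1 differed in opposite directions, Clec5a was not past the threshold and Clec4b2 was not tested.

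Other receptors of this cluster were low or not past the threshold. Clec12a encodes MICL, an ITIM receptor that senses uric acid crystals. It was 49.6 FPKM in F4/80-negative cells against 65.9 FPKM in the macrophages (adjusted p = 0.164, by Cuffdiff in the authors' deposited table). Clec9a encodes DNGR-1, a receptor for actin of dead cells that marks the cross-presenting dendritic cells, and it was 1.22 and 0.408 FPKM. Its smallest adjusted p was 0.207, by Cuffdiff in the authors' deposited table, and up to 20.4% of the exon bases of a Clec9a transcript overlap Clec1b on the same strand. Clec1b encodes CLEC-2, the podoplanin receptor of platelets, and was 0.342 and 0.373 FPKM. Clec1a was 0.666 and 0.431 FPKM, and Clec12b, an ITIM receptor, was 0.346 and 0.186 FPKM. Both Clec1b and Clec12b were untested, and Clec1a was not past the threshold.

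Apart from Clec2l, which has no Clr name and lies outside both clusters, the Clec2 genes encode Clr proteins. These are ligands for receptors of the Nkrp1 family on natural killer and other cells. Clec2d, which encodes Clr-b, was the most abundant of the 7 Clec2 members, Clec2l included. It was 56.0 FPKM in F4/80-negative cells against 42.2 FPKM in the macrophages (adjusted p = 0.189, by Cuffdiff in the authors' deposited table). Clec2i, which encodes Clr-g, was lower in CD301b macrophages at 9.07 against 5.97 FPKM, which is 1.52-fold. Its main transcript carried the call, at 7.15 and 4.34 FPKM (adjusted p = 0.0227, by Cuffdiff in the authors' deposited table). Another Clec2i transcript was 0.0802 and 1.29 FPKM and was not past the threshold (adjusted p = 0.0888, by Cuffdiff in the authors' deposited table). Of the 50-base words of the main Clec2i transcript, 7.88% occur in other genes, chiefly Clec2h. Clec2g was 0.543 and 1.23 FPKM and was not past the threshold. Clec2e, Clec2f, Clec2h and Clec2l lay between 0.000454 and 0.468 FPKM and were not tested.

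A further Clec2 gene, named Clec2m in RefSeq, stands in the table under the older symbol 4922502D21Rik, so the choice by symbol left it out of the 31 genes. It was 0.0268 FPKM in F4/80-negative cells, was listed at 0 in the macrophages and was not tested, and no other gene of the table was left out in this way.

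The cluster also holds 12 genes of the table that are not members, the one just named included. Of the 7 tested ones, 1 was higher in CD301b macrophages and 2 were lower, beside 11.0% and 6.2% of all tested genes. These 3 are named after their values were seen. Cd69 was lower and BC064078 was higher. Klrb1b, which encodes the Nkrp1 receptor that binds Clr-b, was 47.1 FPKM in F4/80-negative cells against 11.0 FPKM in the macrophages, 4.27-fold lower, and it belongs to a family of close copies. Its ligand gene Clec2d, given above, was not past the threshold.

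Outside the clusters, Clec5a was the only receptor gene of chromosome 6 above 1 FPKM. It encodes MDL-1, which signals through the adaptors DAP12 and DAP10, and was 9.23 FPKM in F4/80-negative cells against 9.95 FPKM in the macrophages. Clec5a was not past the threshold. Clec3b was the called gene furthest from receptor function: it encodes tetranectin, a secreted plasminogen-binding protein. Clec3b (NCBI gene 21922, chromosome 9, 123150946 to 123157432) was 44.5 FPKM in F4/80-negative cells against 20.1 FPKM in the macrophages, 2.22-fold lower (adjusted p = 0.000999, by Cuffdiff in the authors' deposited table). It is an abundant product of fibroblasts. The 6 fibroblast markers examined summed to 6197 FPKM in F4/80-negative cells against 4200 FPKM in the macrophages. Of them, 1 (Lum) was lower at 116.0 against 70.7 FPKM, beside 6.2% of all tested genes. The other 5 were not past the threshold, among them Col1a1, Col1a2 and Col3a1, which made up most of the sums. The part of fibroblasts in the Clec3b result was not tested.

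Clec11a, a secreted growth factor of bone and blood-forming cells, was 4.58 and 3.10 FPKM, and Clec16a, an endosomal protein and not a lectin receptor, was 2.99 and 4.08 FPKM. Neither was past the threshold. Clec14a, an endothelial receptor, was 0.881 and 0.707 FPKM and Clec4g, a lectin of liver sinusoids, was 0.661 and 0.222 FPKM, also not past the threshold. Clec4f, a lectin of liver macrophages, and the secreted Clec3a and Clec18a were listed at 0 in both populations.

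Several genes were made of more than 1 transcript, and the plot of transcript shares shows the 8 with several transcripts and over 5 FPKM in a population. In these 8 the main form was the same in both populations. It was not the same in 3 genes at lower levels, Clec2g, Clec12b and Clec1b. In Clec2g the main form of F4/80-negative cells held 72.0% there and 34.6% in the macrophages, and another form held 28.0% and 60.8%, at no more than 0.748 FPKM for either form. In Clec12b the forms held 84.5% and 6.65%, and 15.5% and 93.3%. In Clec1b the main forms held 70.2% and 48.5%, and 0.00225% and 48.7%, at no more than 0.292 FPKM for any form of these genes. Clec4n had 66.4% of its FPKM in the full-length form in F4/80-negative cells and 69.5% in CD301b macrophages. The form without its exon 3 held 33.5% and 30.1%. In Clec4b1 the full-length form held 77.3% and 86.0%, and the form that lacks its own exon 3 held 22.7% and 14.0%. The skipped exons of Clec4n (102 bases, chr6:123232093-123232194) and Clec4b1 (99 bases, chr6:123065939-123066037), both on the plus strand, are 83.3% identical. They are shown because skipping of the same exon is annotated in both genes, and capitals mark the 85 of 102 aligned positions that are identical.
Clec4n exon: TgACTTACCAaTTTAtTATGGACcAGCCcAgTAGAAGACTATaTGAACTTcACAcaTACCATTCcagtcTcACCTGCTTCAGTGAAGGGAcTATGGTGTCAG
Clec4b1 exon: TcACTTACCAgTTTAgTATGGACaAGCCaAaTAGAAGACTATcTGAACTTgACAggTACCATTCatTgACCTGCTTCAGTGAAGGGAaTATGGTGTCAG
Either exon is a whole number of codons, 34 and 33. The Clec4b1 form without the exon was 9.74 FPKM in F4/80-negative cells against 4.14 FPKM in the macrophages (adjusted p = 0.10, by Cuffdiff in the authors' deposited table), and the full-length form was 33.1 and 25.4 FPKM. Clec5a had 64.2% and 63.9% in its longer coding form, and Clec4d had 86.7% and 88.4% in its main form. Both Clec4d transcripts match the same GENCODE model, so how they differ cannot be given here. No test of transcript shares can be made from this table.

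**Figure D3:**
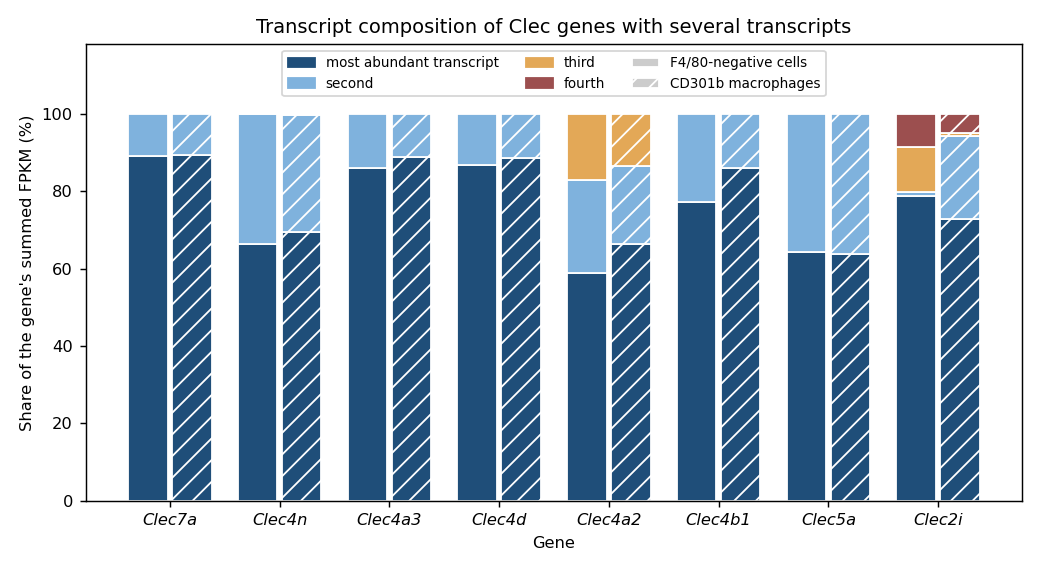
Share of each gene's summed FPKM (percent) held by its transcripts in F4/80-negative cells (plain bars) and CD301b macrophages (hatched bars), for 8 Clec genes with several transcripts, ordered by total FPKM within each gene. The bars of Clec7a are nearly alike at 89.2% and 89.4%, and the main form of Clec4b1 stands at 77.3% and 86.0%.

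Genes that carry the signals of these receptors were called about as often as the 17.2% of all tested genes. Of 24 listed, all tested, 2 were higher in CD301b macrophages, 2 were lower, 19 were not past the threshold and Inpp5d had transcripts past it in both directions. Their median log2 difference was 0.10. Fcer1g, the Fc receptor gamma chain that carries the ITAM for Dectin-2, Mincle and DCAR, was 1062 FPKM in F4/80-negative cells against 1917 FPKM in the macrophages, 1.81-fold higher. Tyrobp, which encodes DAP12, was 1864 and 1852 FPKM, and Syk, the kinase shared by the activating receptors, was 107 and 106 FPKM. Neither was past the threshold. Downstream of Syk, Card9 was 20.7 and 13.7 FPKM (adjusted p = 0.0777) and Bcl10 was 47.2 and 42.4 FPKM (adjusted p = 0.636), by Cuffdiff in the authors' deposited table. Their partner Malt1, the paracaspase of the complex, was lower at 31.6 against 11.5 FPKM, which is 2.74-fold. Src, a kinase that acts upstream, was lower at 6.68 against 3.58 FPKM, and Pycard, the inflammasome adaptor, was higher at 11.0 against 16.8 FPKM. Ptpn6, the phosphatase SHP-1 recruited by ITIMs, was 95.3 and 117.8 FPKM and was not past the threshold.

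**Figure D4:**
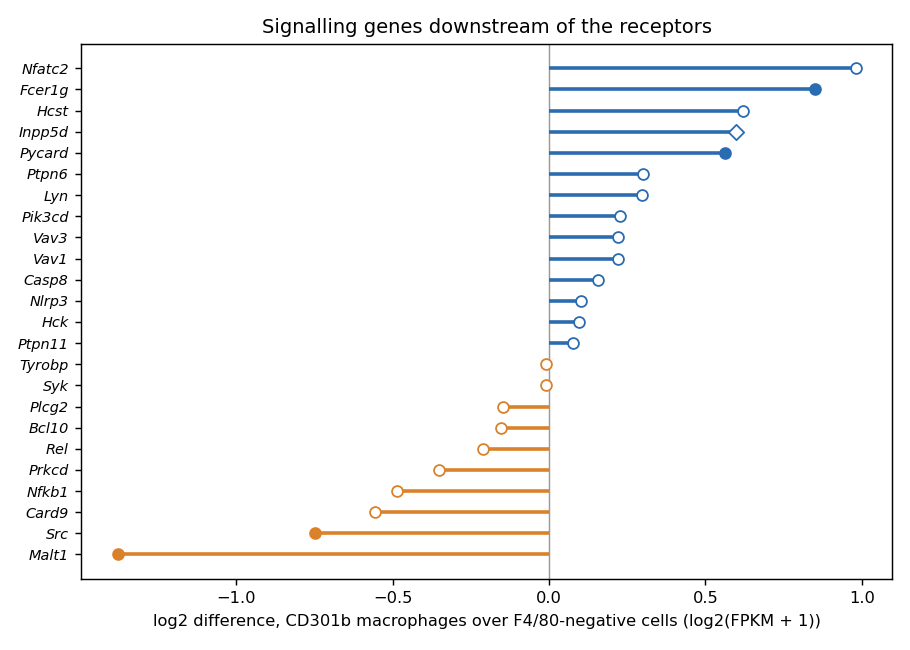
Log2 difference, CD301b macrophages over F4/80-negative cells on the log2(FPKM + 1) scale, of 24 genes of ITAM and ITIM signalling. Filled points passed an adjusted p of 0.05 and the open diamond, Inpp5d, had transcripts past it in both directions; Malt1 stands furthest down at -1.38 and Fcer1g is the called gene furthest up at 0.85.

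The labels were also checked against marker genes of cell types. All 8 macrophage markers, Adgre1 included, were higher in CD301b macrophages, and their summed level was 6749 FPKM there against 2146 FPKM. Of 8 dendritic cell markers, 7 were lower in CD301b macrophages and none was higher. Their summed level was 241 FPKM in F4/80-negative cells against 63.6 FPKM in the macrophages. Mast cell markers were lower in 5 of 6 cases, with sums of 56.2 and 19.7 FPKM. Among 6 tested neutrophil markers 3 were lower and 1 was higher. The 7 in the table summed to 3848 and 2129 FPKM, mostly from S100a8 (1725 and 938 FPKM) and S100a9 (2025 and 1092 FPKM). The third lower marker, Csf3r, was nearly equal at 71.3 and 68.1 FPKM, and Cxcr2 was 25.7 and 27.3 FPKM. Ngp was the higher one, at 0.464 and 2.78 FPKM, and Mpo and Camp were under 1 FPKM in both. The part of these cells in the Clec7a, Clec4e and Clec2i results was not tested. Of the platelet markers, Pf4 and Ppbp were higher in CD301b macrophages, while Itga2b, Gp9, Gp1ba and Treml1 were under 1 FPKM in both, as was the platelet receptor Clec1b. No endothelial or keratinocyte marker was past the threshold, and 4 of 5 markers of natural killer cells stayed under 1 FPKM.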

How the data were processed

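RNA of 2 libraries per population was sequenced from TruSeq mRNA libraries, per the labels' protocols. Per the submitters' processing notes, TopHat2 2.0.2 and Cuffdiff 2.0.2 were used with mm9, but the table's coordinates follow GRCm38: 23 of 31 Clec genes start at the RefSeq gene start when counted from 1. The authors deposited 1 table with FPKM per transcript and population and an unadjusted p-value, limited below at 5e-05. The sources used here do not give how libraries were combined or whether counting used strand. Without read counts, depth and counting intervals are unknown, and no test could be refitted.

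The p-values were adjusted over tested transcripts, and the resulting calls equalled the deposited ones in every transcript (0 differences). Date-like symbols (56 transcripts) were replaced through their accessions. Log2 differences used a pseudocount of 1 FPKM. Genes at 1 FPKM or more in a population were to be named with both values and the others in groups. Clec4a1 and Clec4a3 had been listed with activating receptors and were moved to the DCIR genes after their values were seen (activating receptors with them: 9 tested, 2 higher, 2 lower). The planned split of chromosome 6 at the largest gap (43.1 Mb) left both clusters together, so runs of 3 or more genes within 1 Mb were used, also chosen after the data were seen. Members and lists were chosen with earlier results of these data known. GENCODE M21 gave transcript models for 51 of 52 transcripts. RefSeq (GRCm38.p6) gave promoters for 25 genes. Alternatives were a stricter adjusted p, the most abundant transcript, a filter on low values, another pseudocount and median scaling. The adjustment and calls were tested on simulated data. Scripts ran on Python 3.11.15 with numpy 2.4.6 and pandas 2.3.3.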

Additional observations from a re-analysis of the deposited data

How the results depend on the processing

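Of 3 genes called higher, 1 (Clec4a1) passed an adjusted p of 0.01, and the same 1 of 3 among chromosome 6 genes; Clec4a2 and Clec4a3 did not. Of 4 called lower, 3 passed, without Clec2i. With adjustment over transcripts at 1 FPKM or more, Clec4n joined the higher genes (4). At an unadjusted p of 0.05 for the most abundant transcript, 6 genes were higher and 6 lower, a setting added after the data were seen. The shares of all tested genes called at these other settings were not computed. The counts therefore show only how the lists of Clec genes change. The median log2 difference of all members was -0.19 with a pseudocount of 0.1 FPKM and 0.060 over members at 1 FPKM or more, so it gives no direction. Scaling each population to its median gene lowered log2 differences by up to 0.11. Under it the uncalled Clec4a4 (-0.013), Clec4d (-0.073) and Clec5a (-0.0047) changed sign, and the called genes kept their direction in all 3 alternatives for the fold. No paired analysis was possible because the table holds 1 value per population and not per library, and for the same reason no library could be left out. Depth is unknown, so values under 1 FPKM are read as low and no more.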
